A study of Homo sapiens with 9 samples.

Results

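The genes described here carry carbon from acetyl-CoA to stored and secreted fat in PLC/PRF/5, an established human hepatoma line: they make fatty acids, lengthen and desaturate them, activate them as CoA esters, and build, store, break down or export triglyceride. The 32 members are given by symbol and were found through their Ensembl identifiers, 1 identifier each, among the 58219 genes of the count tables. They fall into de novo synthesis (9 genes), elongation and desaturation (9), activation by long-chain acyl-CoA synthetases of the ACSL family (4), and triglyceride assembly, storage, lipolysis and export (10). Of the 32 members, 31 had enough reads to be tested, and THRSP, a small protein tied to lipid synthesis in liver and fat, had 0 reads in every sample.

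PLC/PRF/5 cells stably expressed YES, a Src-family tyrosine kinase encoded by YES1, either as wild type (4 samples) or with T348I (5 samples), a substitution at the gatekeeper residue of the drug-binding pocket. Every sample of both groups had been exposed to 100 nM dasatinib, a drug that blocks Src-family, ABL and some other kinases. An untreated arm was not analysed here, so each difference is one between the wild-type and T348I lines under the drug. The labels call each of the groups a stable cell line and do not say whether it was a clone or a pool, nor whether replicates were separate cultures. The titles carry the full drug name for 6 samples, 3 of each group (the dasatinib set), and the short form Dasa for 3, of which 1 is wild type (the Dasa set). What that spelling marks is not stated. It was a term of the model, and because the Dasa set has a single wild-type library, a difference between the sets rests on that library.

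Fatty acid synthesis starts in the cytosol, where ATP citrate lyase and acetyl-CoA synthetase supply acetyl-CoA, acetyl-CoA carboxylase makes malonyl-CoA, and fatty acid synthase joins these units into palmitate using NADPH. In the endoplasmic reticulum, ELOVL enzymes add carbons, and SCD and the FADS enzymes add double bonds. ACSL enzymes attach CoA to free fatty acids, after which GPAM, AGPAT2, lipins and DGAT enzymes build triglyceride. In hepatocytes triglyceride is stored in droplets coated by perilipins or loaded by MTTP onto apolipoprotein B for secretion, and the transcription factors SREBF1 and MLXIPL (ChREBP) drive much of this programme in response to insulin, sterols and glucose.

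Samples held 10381142 to 15799059 reads in genes. Mitochondrially encoded genes took 7.38% to 9.44% of gene reads in the dasatinib set and 15.25% to 17.0% in the Dasa set, in both groups. Transcript of YES1, which also counts reads of the endogenous gene, stood at 341 to 368 CPM (reads of a gene scaled to equal library size) in wild type and 553 to 1032 CPM in T348I. The form of YES, the amount of its transcript and other differences between the lines cannot be told apart here. Of 9 hepatocyte and hepatoma markers 8 were tested, and 6 of these differed between the groups in the edgeR test. KRT8 (log2 fold change 0.94) and KRT18 (1.22) were higher in T348I, and TF (-0.76), AFP (-0.57), ALB (-0.63) and FGB (-0.22) were lower. APOB, at a mean of 3175 CPM in wild type and 3103 CPM in T348I, and SERPINA1, at 1540 and 1448 CPM, were not called. Within the dasatinib set alone, APOB (0.30) and SERPINA1 (0.13) were called higher (edgeR adjusted p = 1.48e-05 and 0.0072). There FGB (-0.041) and ALB (-0.43) were not called (edgeR adjusted p = 0.379 and 0.073). The fold differed between the sets for 7 of the 8 (edgeR interaction, adjusted p under 0.05), beside 7.33% of all genes. That difference rests on the single Dasa wild-type library. ALB was low, at a mean of 3.95 CPM in wild type and 2.49 CPM in T348I, and TTR had 14 reads in all. The leukocyte markers PTPRC, CD3E and CD14 were at 35 reads or fewer over the 9 samples. The 4 fibroblast markers summed to 3.42 to 8.03 CPM in wild type and 4.30 to 9.84 CPM in T348I. Among them COL1A1 was called higher in T348I (3.72 and 5.91 CPM, log2 fold change 0.52, edgeR adjusted p = 0.00485), and DCN had 4 reads in all. The 4 endothelial markers summed to 1.37 to 3.56 CPM and 1.81 to 3.94 CPM, with PECAM1 not called and KDR at 1 read in all. The part of these marker differences in the results on lipid genes was not tested. In such bulk RNA a smaller share of cells that express a gene cannot be told apart from less of its RNA per cell.

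Among the 31 tested members, 22 differed between T348I and wild type at an edgeR adjusted p under 0.05, where 42.5% of all 14617 tested genes did. Of these, 9 were higher in T348I, beside 20.7% of all genes, and 13 were lower, beside 21.8%. In shares, 71.0% of tested members were called, 29.03% higher and 41.9% lower. Most changes were small. The median log2 fold change was -0.16 over the members and -0.0077 over all tested genes, and the median size without sign was 0.25 and 0.17. A called change of 2-fold or more occurred in 1 member, ACSL5, beside 3.56% of all genes. All 9 samples separated the groups without overlap for 10 members. T348I was the higher group for 5 of them (FASN, ACACA, ELOVL1, ACSL3, ACSL5), beside 10.2% of all genes, and the lower group for 5 (ELOVL2, ELOVL7, LPIN2, DGAT1, PNPLA2), beside 9.41%. Within the dasatinib set, 3 samples against 3, the groups did not overlap for 9 members with T348I above (21.8% of all genes) and 13 with T348I below (22.9%).

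**Figure D1:**
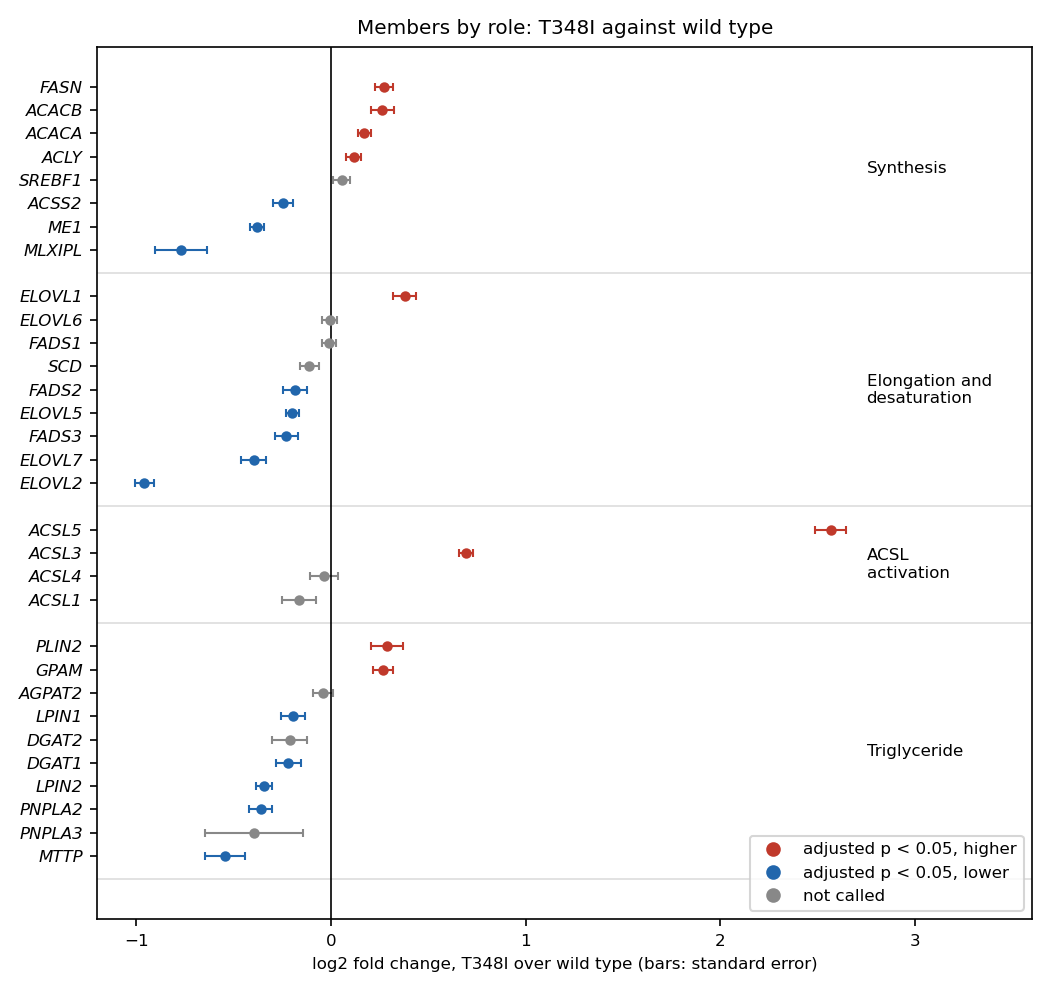
Log2 fold change of the 31 tested members, T348I over wild type, by role; points are the edgeR estimates, bars the standard error, and colour the call at adjusted p under 0.05. ACSL5 lies at 2.57 and ELOVL2 at -0.96, while the other members lie between -0.77 and 0.69.

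The core enzymes of palmitate synthesis were slightly higher in T348I, while acetate activation, an NADPH source and the ChREBP gene were lower. Of the 8 tested synthesis genes, 4 rose (FASN, ACACA, ACACB, ACLY), 3 fell (ACSS2, ME1, MLXIPL) and SREBF1 did not pass the test. In shares, 50% were higher and 37.5% lower, beside 20.7% and 21.8% of all genes. The median log2 fold change was 0.085.

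FASN, the fatty acid synthase that makes palmitate (chromosome 17, 82078333 to 82098332, minus strand, GRCh38), stood at 426, 434 and 445 CPM in the wild-type samples of the dasatinib set and 488 CPM in that of the Dasa set. The T348I samples stood at 579, 512 and 542 CPM in the former set and at 522 and 569 CPM in the latter. Every T348I sample lay above every wild-type sample. The level was 1.21-fold higher (log2 fold change 0.27, SE 0.045, edgeR adjusted p = 6.69e-05). ACACA, the cytosolic acetyl-CoA carboxylase that commits acetyl-CoA to synthesis, spanned 113 to 116 CPM in wild type and 124 to 131 CPM in T348I, again without overlap. Its log2 fold change was 0.17 (SE 0.035, edgeR adjusted p = 0.000594).

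ACACB, the carboxylase at the mitochondrial surface whose malonyl-CoA restrains fatty acid import, followed the sets more than the groups. In wild type it was at 16.3, 15.0 and 16.2 CPM in the dasatinib set and 27.5 CPM in the Dasa set. In T348I it was at 19.2, 18.8 and 19.7 CPM and then 32.4 and 33.1 CPM. The groups overlapped over all samples and were apart within each set, at a log2 fold change of 0.26 (SE 0.059, edgeR adjusted p = 0.00137). ACLY, which releases acetyl-CoA from citrate, likewise overlapped over all samples (272 to 351 CPM in wild type, 289 to 386 CPM in T348I) and was 0.12 higher on the log2 scale (SE 0.037, edgeR adjusted p = 0.0156). Without T348I dasatinib replicate 3 the ACLY estimate was 0.10 and no longer passed the threshold.

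ME1, the cytosolic malic enzyme that yields NADPH, was at 144, 150 and 144 CPM in wild type and 113, 114 and 116 CPM in T348I within the dasatinib set. The Dasa set was lower in both groups, at 98.3 CPM in wild type and 73.8 and 71.9 CPM in T348I. T348I was below wild type within each set, and ME1 fell by 0.38 on the log2 scale (SE 0.036, edgeR adjusted p = 6.86e-08). ACSS2, which turns acetate into acetyl-CoA in the cytosol and nucleus, fell by 0.25 (SE 0.051, edgeR adjusted p = 0.000604). It averaged 44.0 ± 5.24 CPM (SD, n = 4) in wild type and 35.5 ± 7.01 CPM (SD, n = 5) in T348I.

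The genes of the transcription factors differed from each other. SREBF1 was at 101 to 106 CPM in wild type and 103 to 123 CPM in T348I, overlapping groups, with a log2 fold change of 0.054 (SE 0.044, edgeR adjusted p = 0.338). MLXIPL was at 9.10, 8.41 and 8.33 CPM in wild type and 7.12, 6.62 and 6.28 CPM in T348I within the dasatinib set. Dasa samples were at 23.5 CPM in wild type and 9.54 and 9.996 CPM in T348I, so the single wild-type library of that set stood far above the other 8 samples. MLXIPL fell by 0.77 (SE 0.132, edgeR adjusted p = 0.0001), and by 0.37 without wild-type Dasa replicate 1, where it was still called.

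**Figure D2:**
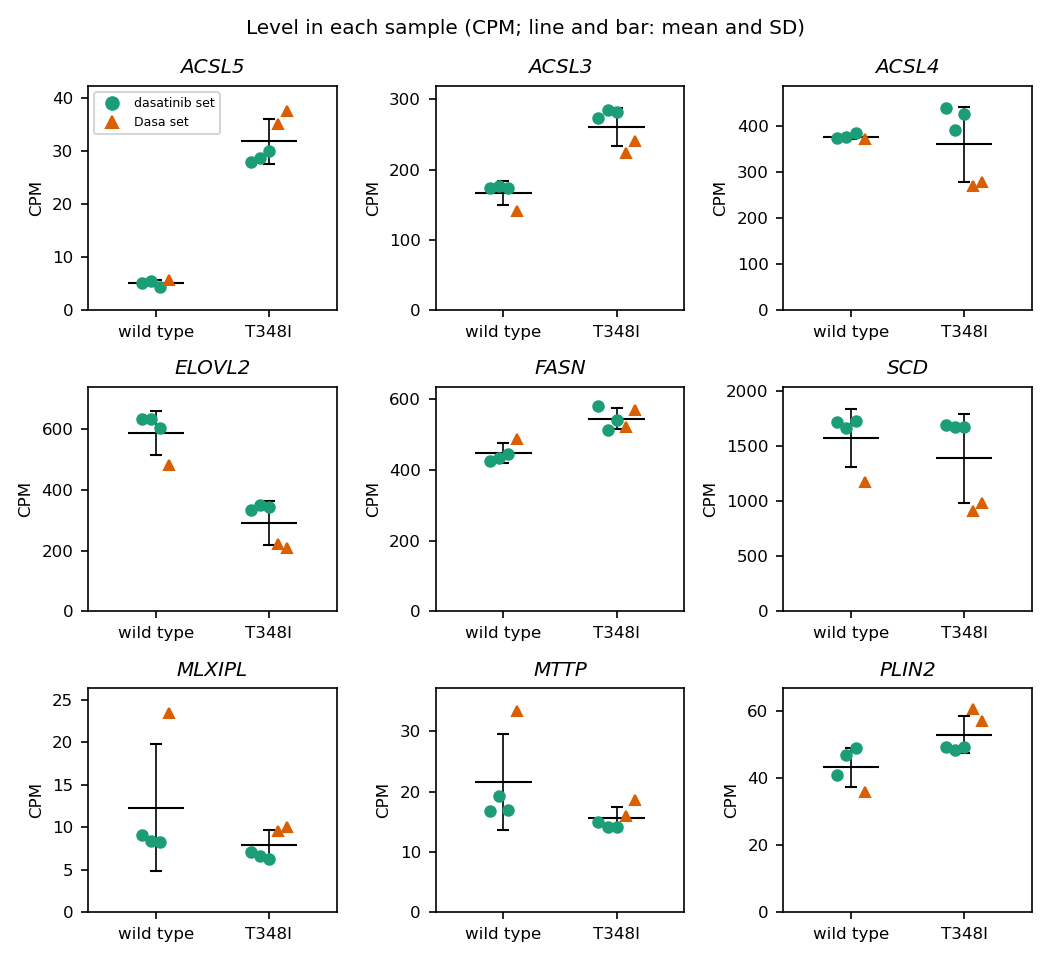
Level in CPM in each sample for 9 members, wild type (4 samples) against T348I (5 samples); circles are the dasatinib set, triangles the Dasa set, the line is the mean and the bar the SD. ACSL5, ACSL3, ELOVL2 and FASN separate the groups in all samples, while ACSL4, MLXIPL, MTTP and PLIN2 have Dasa samples that stand apart from the dasatinib set.

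Elongation and desaturation genes leaned down in T348I: 1 of 9 rose (ELOVL1), 5 fell (ELOVL2, ELOVL5, ELOVL7, FADS2, FADS3) and 3 did not pass the test (ELOVL6, SCD, FADS1). In shares, 11.1% were higher and 55.6% lower, beside 20.7% and 21.8% of all genes. The median log2 fold change was -0.19, beside -0.0077 over all genes. The largest decrease among all members was that of ELOVL2, which lengthens long polyunsaturated fatty acids.

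ELOVL2 (chromosome 6, 10980759 to 11044314, minus strand, GRCh38) was at 635, 635 and 603 CPM in wild type and 333, 350 and 345 CPM in T348I in the dasatinib set. The Dasa samples were lower in both groups, at 482 CPM in wild type and 221 and 207 CPM in T348I. All T348I samples lay below all wild-type samples. ELOVL2 fell by 0.96 on the log2 scale, a 1.94-fold lower level (SE 0.048, edgeR adjusted p = 6.3e-12). The decrease was larger in the Dasa set, where the log2 ratio of mean CPM was -1.17, than in the dasatinib set, where the fold change was -0.86 (interaction -0.31, SE 0.065, edgeR adjusted p = 0.00158).

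ELOVL1, which extends saturated and monounsaturated chains to very long ones, went the other way. It was at 90.5, 109 and 98.6 CPM in wild type and 116, 120 and 119 CPM in T348I in the dasatinib set, and at 107 CPM against 164 and 168 CPM in the Dasa set. No T348I sample fell within the wild-type range, and the Dasa T348I samples were the highest. The log2 fold change was 0.38 (SE 0.061, edgeR adjusted p = 5.25e-05).

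ELOVL7, another elongase of saturated chains, fell by 0.40 (SE 0.064, edgeR adjusted p = 4.89e-05), with wild type at 54.2 to 63.3 CPM and T348I at 32.4 to 50.8 CPM, without overlap. ELOVL5, which acts on polyunsaturated chains ahead of ELOVL2, fell by 0.20 (SE 0.034, edgeR adjusted p = 8.36e-05), with the groups apart within each set only. ELOVL6, which takes palmitate to stearate, was at 62.0 to 70.2 CPM in wild type and 58.0 to 69.6 CPM in T348I (log2 fold change -0.0079, SE 0.041, edgeR adjusted p = 0.894).

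Levels were compared between genes per kilobase of exon, taking all annotated exons of a gene together. That length can exceed the transcript in use, so comparisons between genes are approximate. On this scale, ELOVL2 made up 49.8% to 52.9% of the summed level of the 7 ELOVL genes in wild type and 28.0% to 37.2% in T348I. ELOVL1 made up 12.0% to 17.6% in wild type and 20.3% to 36.2% in T348I. Each share depends on the other genes of the sum: ELOVL5 made up 19.4% to 21.1% in wild type and 21.2% to 24.25% in T348I, although its level fell. The summed ELOVL level per kilobase was 286 ± 29.7 CPM (SD, n = 4) in wild type and 213 ± 25.4 CPM (SD, n = 5) in T348I.

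SCD, the stearoyl-CoA desaturase that makes oleate and palmitoleate (chromosome 10, 100347124 to 100364834, plus strand, GRCh38), had the highest level per kilobase of all members, a mean of 275 CPM per kilobase over the 9 samples against 106 for ELOVL2, the next. It was at 1724, 1668 and 1730 CPM in wild type and 1697, 1676 and 1675 CPM in T348I in the dasatinib set. Both groups were lower in the Dasa set, at 1179 CPM in wild type and 910 and 989 CPM in T348I. The groups overlapped, and SCD differed more between the sets than between the groups (log2 fold change -0.11, SE 0.050, edgeR adjusted p = 0.0823).

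The FADS genes lie side by side on chromosome 11. FADS1, a desaturase of polyunsaturated chains, was at 318 to 452 CPM in wild type and 285 to 467 CPM in T348I and did not pass the test (log2 fold change -0.011, SE 0.038, edgeR adjusted p = 0.838). FADS2, which acts a step earlier on the same chains, averaged 28.1 ± 6.89 CPM (SD, n = 4) in wild type and 22.8 ± 6.87 CPM (SD, n = 5) in T348I, and fell by 0.19 (SE 0.060, edgeR adjusted p = 0.0167). Without wild-type dasatinib replicate 2 it fell by 0.17 and was not called. FADS3, their relative that acts on sphingoid bases, fell by 0.23 (SE 0.059, edgeR adjusted p = 0.00358). SCD and FADS2 each have 1 annotated pseudogene named after them, and reads that map to several places count for no gene.

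The upstream sequences of SCD, the member with the highest level, and ELOVL2, the member that fell most, are shown from RefSeq (GRCh38.p14), as the part of the 250 bases before each start that overlaps no annotated exon. The SCD stretch is chr10:100346983-100347123 on the plus strand and the ELOVL2 stretch chr6:11044315-11044512 on the minus strand. Capitals mark CCAAT boxes, the motif bound by NF-Y, a partner of SREBP at many lipid genes.
SCD: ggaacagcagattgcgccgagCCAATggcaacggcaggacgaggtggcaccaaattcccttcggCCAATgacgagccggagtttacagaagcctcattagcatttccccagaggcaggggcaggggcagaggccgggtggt
ELOVL2: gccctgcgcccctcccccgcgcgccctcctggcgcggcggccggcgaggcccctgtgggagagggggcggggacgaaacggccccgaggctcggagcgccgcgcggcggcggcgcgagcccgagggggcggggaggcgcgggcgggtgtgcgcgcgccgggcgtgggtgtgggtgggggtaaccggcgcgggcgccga
The SCD window holds 2 CCAAT boxes, at 229 to 225 and 186 to 182 bases before the start. The ELOVL2 window holds none of the searched motifs, and its G and C content is 84.8%, where the median over all 35116 windows is 58.0%.

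Among the long-chain acyl-CoA synthetases, ACSL5 and ACSL3 rose, none fell, and ACSL1 and ACSL4 did not pass the test. In shares of the 4 genes, 50% were higher and 0% lower, beside 20.7% and 21.8% of all genes. Their median log2 fold change was 0.33. ACSL5 showed the largest change of all members, and ACSL4 lay on opposite sides of wild type in the 2 sets.

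ACSL5, an isoform of mitochondria and endoplasmic reticulum that is abundant in intestine and liver (chromosome 10, 112374018 to 112428380, plus strand, GRCh38), was at 5.13, 5.57 and 4.47 CPM in wild type and 27.8, 28.7 and 29.96 CPM in T348I in the dasatinib set. The Dasa wild-type sample was at 5.68 CPM and the Dasa T348I samples at 35.1 and 37.4 CPM. The lowest T348I sample was thus far above the highest wild-type sample. ACSL5 was 5.92-fold higher (log2 fold change 2.57, SE 0.080, edgeR adjusted p = 4.1e-15), and the fold did not differ detectably between the sets (interaction 0.15, SE 0.203, edgeR adjusted p = 0.754).

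ACSL3, the isoform of the endoplasmic reticulum and nascent lipid droplets (chromosome 2, 222860934 to 222944639, plus strand), was at 174, 177 and 173 CPM in wild type and 273, 284 and 282 CPM in T348I in the dasatinib set. Dasa levels were 141 CPM in wild type and 224 and 241 CPM in T348I. T348I lay above wild type in all samples, and the 1.61-fold difference was similar in both sets, with a log2 fold change of 0.69 in the dasatinib set and a log2 ratio of mean CPM of 0.72 in the Dasa set. The fit over all samples gave 0.69 (SE 0.036, edgeR adjusted p = 9.69e-12). ACSL3 has 1 annotated pseudogene named after it.

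ACSL4, which prefers arachidonate and other polyunsaturated acids (chromosome X, 109624244 to 109733403, minus strand), was at 374, 375 and 384 CPM in wild type and 438, 391 and 424 CPM in T348I in the dasatinib set. In the Dasa set it was at 371 CPM in wild type and 269 and 277 CPM in T348I. Wild type was thus nearly level over both sets, while T348I lay above it in one and below it in the other. The fold over all samples was -0.038 (SE 0.072, edgeR adjusted p = 0.704), and the difference of the fold between the sets was -0.58 (SE 0.067, edgeR adjusted p = 9.82e-08). Without wild-type Dasa replicate 1 the estimate was 0.15 and was called as higher.

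ACSL1, the main isoform of liver and fat, was low at 8.03 to 13.2 CPM in wild type and 6.95 to 11.5 CPM in T348I, overlapping groups, with a log2 fold change of -0.16 (SE 0.087, edgeR adjusted p = 0.144). Per kilobase of exon, ACSL4 made up 67.9% to 72.3% of the summed level of the 5 ACSL genes in wild type and 49.9% to 59.7% in T348I. ACSL3 went from 24.4% to 28.3% of the sum in wild type to 32.9% to 38.4% in T348I. ACSL5 went from 1.22% to 1.68% in wild type to 5.74% to 10.2% in T348I, still a small share on this scale. Each share depends on the other genes of the sum, which was 84.6 ± 3.15 CPM per kilobase (SD) in wild type and 101 ± 15.5 in T348I. The lower ACSL4 share is thus no measure of ACSL4 alone, which was not called. ACSL6, the fifth gene of the family, had 25 reads in all and was not tested.

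The collection of RefSeq starts used here gives 2 transcription starts for ACSL5. The stretches upstream of these 2 starts, chr10:112375018-112375234 and chr10:112375955-112376197 on the plus strand, are shown because ACSL5 changed more than any other member. Both lie inside the span given above for the gene, which begins at 112374018. The bases before that position were neither searched nor shown.
ACSL5 start 1: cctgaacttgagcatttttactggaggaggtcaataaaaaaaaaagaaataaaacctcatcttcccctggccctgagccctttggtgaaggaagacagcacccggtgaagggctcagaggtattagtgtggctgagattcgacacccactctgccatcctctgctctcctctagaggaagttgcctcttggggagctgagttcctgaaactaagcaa
ACSL5 start 2: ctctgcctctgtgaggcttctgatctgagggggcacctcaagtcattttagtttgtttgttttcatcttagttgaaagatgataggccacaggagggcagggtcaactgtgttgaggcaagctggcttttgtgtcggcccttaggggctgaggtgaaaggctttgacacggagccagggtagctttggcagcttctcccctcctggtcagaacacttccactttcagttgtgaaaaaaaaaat
Neither window holds any of the searched motifs, so nothing is in capitals. The G and C content of the second is 48.8%. The gene counts do not tell which start was used.

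**Figure D3:**
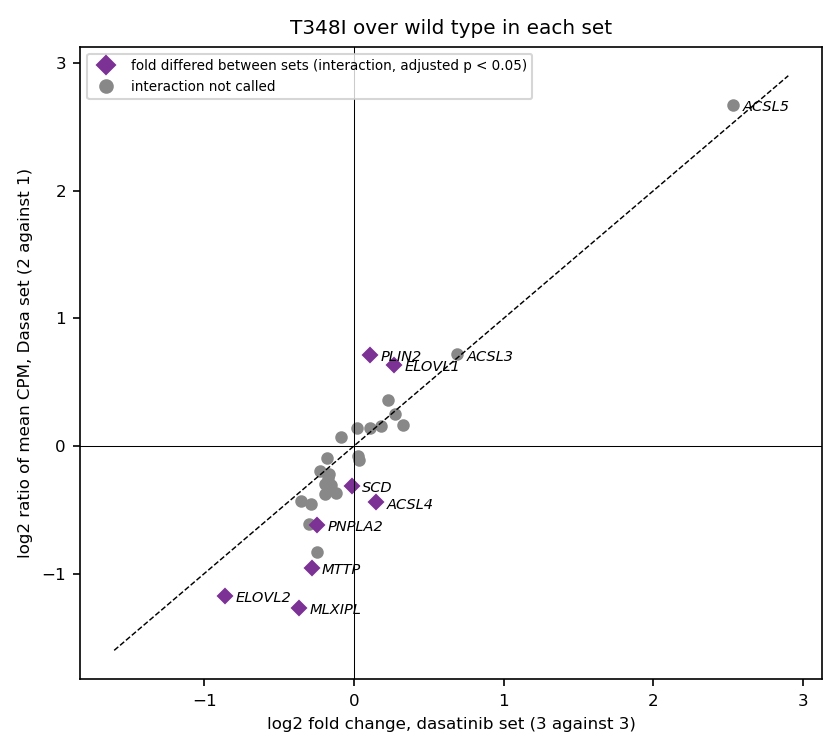
T348I over wild type in the dasatinib set (x axis, edgeR log2 fold change, 3 samples against 3) and in the Dasa set (y axis, log2 ratio of mean CPM, 2 samples against 1), 1 point per tested member; the dashed line marks equal values and purple diamonds the 8 members whose fold differed between the sets. ACSL5 and ACSL3 lie near the line, while ACSL4 lies right of 0 at 0.15 and below 0 at -0.44.

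Among the triglyceride genes, GPAM of the first step and the droplet coat gene PLIN2 were higher in T348I. The PLIN2 call was lost without wild-type Dasa replicate 1. Genes of later steps, lipolysis and export were lower or did not pass the test. Of the 10 genes, 2 rose (GPAM, PLIN2), 5 fell (LPIN1, LPIN2, DGAT1, PNPLA2, MTTP) and 3 did not pass the test (AGPAT2, DGAT2, PNPLA3). The share called higher, 20%, was close to the 20.7% of all genes, and 50% were lower, beside 21.8%. The median log2 fold change was -0.22.

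GPAM, the mitochondrial acyltransferase that starts glycerolipid synthesis, was at 31.96, 30.3 and 31.8 CPM in wild type and 36.0, 38.7 and 34.9 CPM in T348I in the dasatinib set. It was at 37.3 CPM in wild type and 47.5 and 48.2 CPM in T348I in the Dasa set. T348I was above wild type within each set (log2 fold change 0.27, SE 0.052, edgeR adjusted p = 0.000353). AGPAT2, which adds the second acyl chain, was at 36.4 to 44.7 CPM in wild type and 37.6 to 44.3 CPM in T348I (log2 fold change -0.042, SE 0.0535, edgeR adjusted p = 0.562).

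Lipins remove the phosphate from phosphatidic acid to give diacylglycerol. LPIN2, the form that predominates in liver, was at 89.4, 88.6, 88.7 and 104 CPM in the 4 wild-type samples and 69.5 to 76.7 CPM in T348I. The groups did not overlap, and LPIN2 fell by 0.35 (SE 0.041, edgeR adjusted p = 1.35e-06). LPIN1 fell by 0.19 (SE 0.063, edgeR adjusted p = 0.017), with overlap (24.9 to 28.7 CPM in wild type, 19.2 to 28.1 CPM in T348I). Without wild-type Dasa replicate 1 LPIN1 fell by 0.12 and was not called.

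The diacylglycerol acyltransferases catalyse the last step. DGAT1 was at 20.5, 20.6, 21.7 and 22.3 CPM in wild type and 16.7 to 19.7 CPM in T348I, without overlap, and fell by 0.22 (SE 0.064, edgeR adjusted p = 0.00942). Of its exon bases, 10.9% are shared with other genes on the same strand. DGAT2, the enzyme tied to newly made fatty acids, was at 10.2 to 13.5 CPM in wild type and 9.34 to 12.0 CPM in T348I (log2 fold change -0.21, SE 0.090, edgeR adjusted p = 0.0664). Its estimate was close to that of DGAT1 with a larger error, and without wild-type dasatinib replicate 3 it was -0.26 and called.

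PLIN2, the main droplet coat protein of hepatocytes, was at 41.1, 47.0 and 48.9 CPM in wild type and 49.4, 48.5 and 49.3 CPM in T348I in the dasatinib set, where the groups overlapped. The Dasa samples were at 36.0 CPM in wild type and 60.8 and 57.2 CPM in T348I, and this set carried most of the difference. The fit over all samples gave 0.29 (SE 0.083, edgeR adjusted p = 0.00853), and without wild-type Dasa replicate 1 the estimate was 0.11 and not called. The difference of the fold between the sets was 0.61 (SE 0.107, edgeR adjusted p = 0.000149).

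PNPLA2 (ATGL), which takes the first fatty acid off stored triglyceride, was at 79.7, 80.9 and 84.3 CPM in wild type and 69.6, 63.6 and 73.8 CPM in T348I in the dasatinib set. It was at 80.9 CPM in wild type and 50.1 and 55.4 CPM in T348I in the Dasa set. Wild-type samples were close together over both sets and all T348I samples were below them. PNPLA2 fell by 0.36 (SE 0.061, edgeR adjusted p = 8.75e-05). PNPLA3, its relative on lipid droplets, had 0.681 to 2.79 CPM in all samples, with a log2 fold change of -0.40 and a large error (SE 0.251, edgeR adjusted p = 0.219), and of its exon bases 4.58% are shared with SAMM50 on the same strand.

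MTTP, which loads lipid onto apolipoprotein B, was at 16.8, 19.3 and 17.0 CPM in wild type and 14.9, 14.2 and 14.2 CPM in T348I in the dasatinib set. Dasa samples were at 33.4 CPM in wild type and 15.9 and 18.6 CPM in T348I. As for MLXIPL, the Dasa wild-type library was the highest of the 9. APOB, the protein MTTP serves, was also highest in that library, with 5321 CPM there against 2413 to 2496 CPM in the other wild-type samples. MTTP fell by 0.55 (SE 0.102, edgeR adjusted p = 0.000239), and by 0.28 without wild-type Dasa replicate 1, where it was still called.

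The PNPLA2 upstream stretch, chr11:818664-818901 on the plus strand, is shown because it is 1 of 2 member windows with a match to the sterol regulatory element TCACNCCAC, the site of SREBP. Capitals mark that match, which reads on the opposite strand, 153 to 145 bases before the start.
PNPLA2: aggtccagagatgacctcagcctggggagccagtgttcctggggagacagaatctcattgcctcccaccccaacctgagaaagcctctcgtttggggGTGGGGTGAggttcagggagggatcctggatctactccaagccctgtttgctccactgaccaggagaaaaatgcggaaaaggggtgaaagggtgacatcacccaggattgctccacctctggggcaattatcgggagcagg
The collection of RefSeq starts used here held 43 starts of 28 members, and FASN, DGAT1, DGAT2 and PNPLA3 had no entry in it. In the 250 bases before these starts, searched on both strands, the sterol element occurred in 2 (4.65%; ACSL1 and PNPLA2), beside 0.883% of all 35116 windows of that length. The E-box CACGTG, to which ChREBP with MLX and USF factors bind, occurred in 3 (6.98%; ELOVL5, LPIN2 and PLIN2), beside 6.34%. CCAAT occurred in 14 (32.6%), beside 32.01%. The AP-1 motif TGANTCA occurred in 3 (6.98%; ACSL1, ELOVL5 and ME1), beside 6.57%. No searched motif contains another, and a match is a description of letters and no evidence of binding.

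The T348I fold differed between the sets for 8 of the 31 tested members (edgeR interaction, adjusted p under 0.05), where 7.33% of all genes did. It was lower in the Dasa set for MLXIPL, ELOVL2, SCD, ACSL4, PNPLA2 and MTTP and higher for ELOVL1 and PLIN2. The sign of the fold was the same in both sets for 27 of 31 members, among them all 22 that were called. The calls come from a fit over both sets, which favours genes with equal signs, so agreement among the 22 is no separate support. The sign in the Dasa set rests on 1 wild-type library, and the share over all tested genes was not computed. Levels themselves differed between the sets in both groups: SCD in the Dasa set was 0.69 times its dasatinib-set level in wild type and 0.56 times in T348I, ME1 0.67 and 0.64 times, FADS1 0.71 and 0.64 times, and ACACB 1.74 and 1.70 times. The higher mitochondrial share of the Dasa set moves with these differences, and its part in them was not tested.

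**Figure D4:**
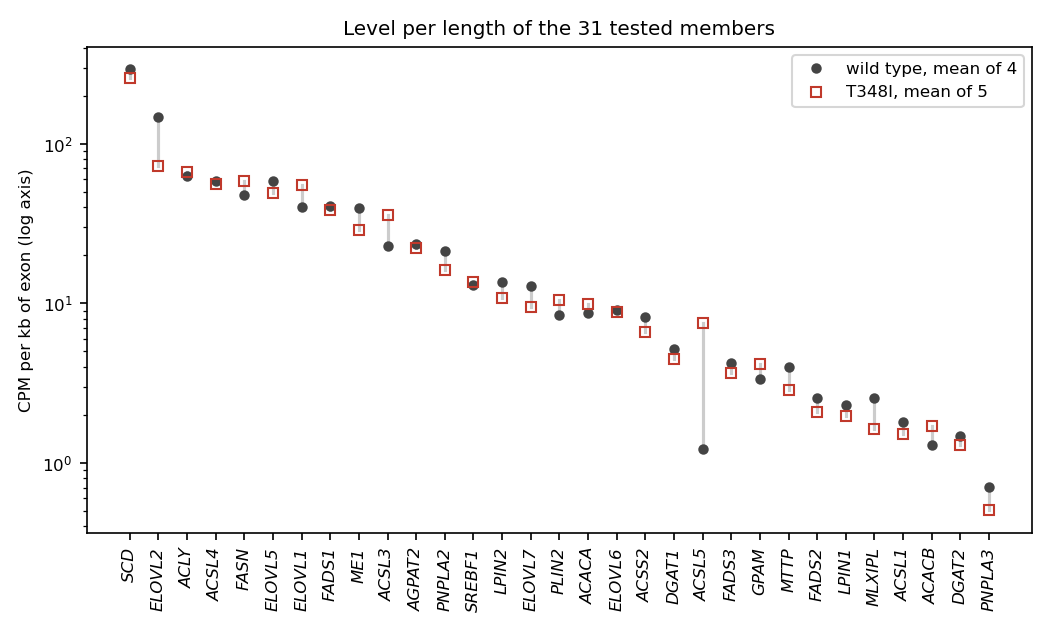
Level per kilobase of exon (CPM per kb, log axis) of the 31 tested members, ordered by the mean of all samples; filled circles are the mean of 4 wild-type samples and open squares the mean of 5 T348I samples. SCD leads at 294 in wild type and 259 in T348I, and ACSL5 spans the widest gap, from 1.23 to 7.51.

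On the per-kilobase scale the order of mean levels ran from SCD and ELOVL2 over ACLY (64.7 CPM per kilobase), ACSL4 (57.2), FASN (53.6), ELOVL5 (53.3) and ELOVL1 (48.4) down to ACSL1 (1.65), ACACB (1.52), DGAT2 (1.37) and PNPLA3 (0.593). ACLY, ACSL4, FASN, ELOVL5 and ELOVL1 lie close together in this order, and their order differs between the groups: ELOVL5 was at 58.7 in wild type and 49.0 in T348I, while FASN was at 47.9 and 58.2. ACSL5 passed from 1.23, below ACACB at 1.29, to 7.51, above ACSS2 at 6.59.

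Genes that supply, control or consume these lipids were examined in 6 further lists of 114 genes, of which 95 were tested. Of those tested, 15 (15.8%) were higher in T348I and 40 (42.1%) lower, where 20.7% and 21.8% of all genes were. The same shares of all genes apply to each list count below.

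In the control list of SREBP and ChREBP partners, 3 of 15 rose (20%) and 6 fell (40%), with a median log2 fold change of 0.0018. MLX, the partner protein of ChREBP, rose by 0.54 (edgeR adjusted p = 3.34e-08), at 68.7 to 74.3 CPM in wild type and 96.2 to 117 CPM in T348I, while MLXIPL itself fell. INSIG1, which retains SREBP precursors in the endoplasmic reticulum and is itself an SREBP target, was at 401, 408 and 387 CPM in wild type and 257, 284 and 263 CPM in T348I in the dasatinib set, and at 149 CPM against 61.9 and 71.6 CPM in the Dasa set. T348I was below wild type within each set, and the Dasa samples were far below the others in both groups. MID1IP1, a partner of acetyl-CoA carboxylase related to THRSP, rose by 0.41 (edgeR adjusted p = 3.3e-05). SREBF2, the factor of cholesterol synthesis, fell by 0.17 (edgeR adjusted p = 0.00411), and by 0.10 without wild-type Dasa replicate 1.

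Substrate and NADPH supply counted 2 genes higher (13.3%) and 6 lower (40%) of 15 (median -0.12). SLC25A1, the citrate carrier that feeds ACLY, fell by 0.36 (edgeR adjusted p = 5.64e-06), with 5 pseudogenes named after it. IDH1, the cytosolic isocitrate dehydrogenase that makes NADPH, fell by 0.39 (edgeR adjusted p = 4.72e-06). Like ACSS2, the acyl-CoA synthetases of short chains in mitochondria fell, ACSS1 by 0.92 (edgeR adjusted p = 1.13e-05) and ACSS3 by 0.49 (edgeR adjusted p = 2.36e-06).

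In the rest of the elongation cycle 3 of 7 tested genes rose and 3 fell (42.9% each, median -0.12). HSD17B12, the ketoacyl reductase of the cycle, rose by 0.24, and the dehydratases HACD2 and HACD3 each fell by 0.25 (edgeR adjusted p = 7.25e-05, 1.36e-05 and 2.49e-05). ELOVL3 rose by 0.23 (edgeR adjusted p = 0.0177), with overlapping groups over all samples, and was not called in 6 of 18 alternatives. Among these, the estimate was 0.21 without wild-type dasatinib replicate 1, 0.19 without wild-type dasatinib replicate 2, 0.19 without T348I dasatinib replicate 2 and 0.19 without T348I dasatinib replicate 3.

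Of 10 tested genes of uptake, binding and activation, 1 rose (10%) and 3 fell (30%), with a median of -0.077. FABP1, the liver fatty acid binding protein, averaged 3.73 ± 0.342 CPM (SD, n = 4) in wild type and 1.77 ± 0.658 CPM (SD, n = 5) in T348I, and fell by 1.01 (edgeR adjusted p = 0.000254). FABP5, the epidermal form, rose by 0.38 (edgeR adjusted p = 0.000107), with 15 annotated pseudogenes named after it. ACSF2, a medium-chain synthetase, fell by 0.70 (edgeR adjusted p = 4.58e-06), and SLC27A1, a fatty acid transport protein, fell by 0.30 at the edge of the threshold (edgeR adjusted p = 0.0498) and was not called in 15 of 18 alternatives.

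**Figure D5:**
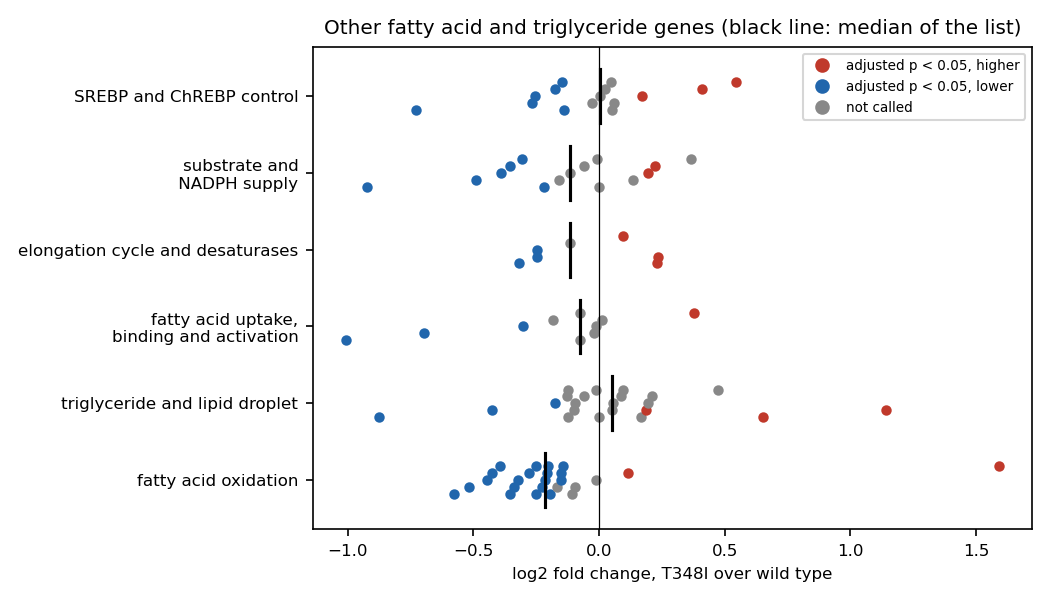
Log2 fold change, T348I over wild type, of the tested genes in 6 lists of related lipid genes, 1 point per gene with vertical offset only for legibility, coloured by call at adjusted p under 0.05; black lines are list medians. G0S2, with 0 reads in wild type, is counted in the median and not drawn. The fatty acid oxidation list has 19 of 25 genes called lower, beside 21.8% of all genes.

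Further triglyceride and lipid droplet genes counted 4 higher (17.4%) and 3 lower (13.0%) of 23 tested (median 0.053, the same with G0S2 at its lower bound). PLIN3, a droplet coat protein that also resides in the cytosol, was at 82.3, 88.6 and 88.3 CPM in wild type and 170, 176 and 175 CPM in T348I in the dasatinib set. Levels of the Dasa samples were 62.8 CPM in wild type and 169 and 183 CPM in T348I. The groups were far apart, with PLIN3 2.21-fold higher (log2 fold change 1.14, edgeR adjusted p = 2.98e-11), and per kilobase of exon PLIN3 made up 73.0% to 77.1% of the 5 perilipin genes in wild type and 82.2% to 85.9% in T348I. GPAT3, an acyltransferase of the endoplasmic reticulum with the same reaction as GPAM, rose by 0.65 (edgeR adjusted p = 2.34e-08), and AGPAT3 fell by 0.43 (edgeR adjusted p = 3.05e-07).

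G0S2, an inhibitor of the PNPLA2 lipase, had 0 reads in all 4 wild-type libraries and 101 reads over the 5 T348I libraries. Those of the dasatinib set were at 1.16, 1.09 and 1.03 CPM and those of the Dasa set at 2.38 and 1.89 CPM. Against a floor of 3 reads over the wild-type group the pooled level was at least 27.5-fold higher in T348I. This bound covers counting error only. G0S2 passed the read filter only through the T348I samples. It is counted among the higher genes of this list, but its edgeR call is no separate support for a difference.

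Fatty acid oxidation, the opposing pathway in mitochondria and peroxisomes, had 2 of 25 tested genes higher and 19 lower (median -0.21). The shares were 8% higher and 76.0% lower, beside 20.7% and 21.8% of all genes. T348I lay below wild type in all samples for 9 of the 25, beside 9.41% of all genes. PPARA, the nuclear receptor that drives this pathway in liver, fell by 0.58 (edgeR adjusted p = 3.91e-06), with wild type at 35.6 to 44.5 CPM and T348I at 19.6 to 31.9 CPM. ACADSB, a dehydrogenase of short branched chains, fell by 0.52 (edgeR adjusted p = 2.17e-07), and ETFDH, which passes the electrons to ubiquinone, by 0.36 (edgeR adjusted p = 6.24e-05). ACOX2, a peroxisomal oxidase of branched chains and bile acid precursors, went the other way and was 3.02-fold higher (log2 fold change 1.59, edgeR adjusted p = 1.2e-08), at 2.12 to 3.20 CPM in wild type and 6.94 to 10.01 CPM in T348I.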

How the data were processed

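RNA of 9 PLC/PRF/5 samples (4 wild type, 5 T348I) was purified with TRIzol and a silica column and sequenced from stranded polyA libraries, per the labels. The authors deposited read counts per gene for each sample, and the submitters' processing notes name STAR 2.5.1b, Trimmomatic 0.35, CASAVA 1.8.2 and build GRCh38. Which annotation release was counted is not given in the sources used here. The sense-strand column was used, whose opposite strand held 5.48% to 5.91% as many gene reads. Rows naming no gene, 22.2% to 29.8% of a file, were left out. Reads with several map positions count for no gene.

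Counts were filtered (filterByExpr, minimum count 10), scaled by TMM and tested in R 4.3.3 with edgeR 4.0.16, a quasi-likelihood F-test with set and group as terms, two-sided, with Benjamini-Hochberg adjustment over 14617 genes and a threshold of 0.05. A second model added their interaction. CPM use TMM library sizes, and standard errors come from the fold and F. Exon lengths (the union of all exons of a gene) and coordinates are from GENCODE 29, where all 32 members matched with the same version. The labels do not name separate cultures, so p-values cover the spread between samples, perhaps technical only. Replicates of a set were not duplicates (chi-square per gene 1.49 to 3.10). The scripts were tested on simulated data with 50 changed genes of each fold. There 52% of 1.2-fold, 82% of 1.5-fold and 100% of 2-fold changes were called, and 8 of 175 calls were false. A gene that did not pass the test may therefore still differ by a small fold.

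All members are described, with up to 4 called genes of smallest p from each related list. Members and lists were chosen with earlier results of these data known. Alternatives were other scalings and filters, DESeq2 1.42.0, unstranded counts, no set term, a replicate block, the dasatinib set alone and each sample left out.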

Additional observations from a re-analysis of the deposited data

Results flagged for a closer look

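In 13 of 62 checks of a member within a group, a single sample stood apart from the rest by Dixon's criterion, which chance meets in about 1 in 20 groups. For 12 of the 13 it was wild-type Dasa replicate 1, the only wild-type library of its set, so these mark the set as much as the sample. That library was high for ACACB (27.51 CPM), MLXIPL (23.5 CPM), LPIN2 (103.8 CPM) and MTTP (33.43 CPM). It was low for ACLY (271.9 CPM), ACSS2 (36.23 CPM), ME1 (98.3 CPM), ELOVL5 (179.1 CPM), SCD (1179 CPM), FADS1 (318 CPM), ACSL3 (141.1 CPM) and AGPAT2 (36.38 CPM). In T348I, Dasa replicate 2 was high for SREBF1, at 122.8 CPM where the next sample had 107.8 CPM.

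For 8 members the T348I fold differed between the sets in the edgeR interaction test (Dasa minus dasatinib, log2). The difference was -0.8933 for MLXIPL, -0.6717 for MTTP, -0.5846 for ACSL4, -0.3695 for PNPLA2, -0.3056 for ELOVL2 and -0.2914 for SCD. It was 0.3767 for ELOVL1 and 0.6082 for PLIN2. Each rests on 1 wild-type and 2 T348I libraries in the Dasa set.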

How the results depend on the processing

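Of 18 alternatives, the model with no set term moved the counts most: of all genes called, 2350 were left instead of 6212, and among members 5 were higher and 4 lower instead of 9 and 13. The other alternatives kept the counts of all genes called, members called higher and members called lower within 1.5 times. DESeq2 called 4916 genes, 9 members higher and 10 lower. Leaving out each sample gave 5131 to 5925 genes, 8 to 9 members higher and 12 to 14 lower. Replicate numbers did not pair the samples: deviations of same-numbered samples in the dasatinib set correlated at 0.113, 0.0044 and 0.0561. A fit with a replicate block called 5372 genes, 8 members higher and 12 lower. The direction of ACSL4 turned, to 0.1492 within the 6 dasatinib samples and to 0.149 without wild-type Dasa replicate 1. Over all samples left out in turn, the log2 fold change of ACSL4 ran from -0.08313 to 0.149. Calls held under all 18 alternatives for 9 of the 22 called members: FASN, ACACA, ELOVL1, ELOVL2, ELOVL7, ACSL3, ACSL5, LPIN2 and PNPLA2. Besides no set term, which ended the other 13 calls, a call was lost for ACLY and LPIN1 under the block and for FADS2, LPIN1 and DGAT1 under DESeq2, for LPIN1 and PLIN2 in the dasatinib samples alone, and SCD gained one with no filter on low counts. Among the named genes of the related lists, INSIG1, SREBF2, SLC25A1, IDH1, HSD17B12, ELOVL3 and SLC27A1 also lost their call with no set term. The cause was not tested. THRSP had no reads, and PNPLA3, ACSL1 and MLXIPL had few, which limits their precision.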
